A study of Mus musculus with 18 samples.

Results

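CCR2+ cardiac resident macrophages (CRMs) from mice fed a high-fat diet were compared with CCR2+ CRMs from control mice, gene by gene. The comparison used 6 of the 18 libraries of the series, the 3 labelled as high-fat diet and CCR2 positive and the 3 labelled as control and CCR2 positive, which were chosen by their labels alone, and all 55401 genes of the count table. The series also holds control and high-fat diet CCR2- CRMs and aged CRMs of both subsets, with 3 libraries in each group. The young mice of the study were female C57BL/6J mice of 3 months on normal chow, and the labels call the other group simply controls, so that reading the controls as these young mice is an inference. The composition of the high-fat diet, its duration, and the strain, sex and age of the mice that ate it are not given in the sources used here, so that diet, age and batch cannot be told apart if they differed. Cells were sorted from the digested left ventricle with antibodies that included CD11b, CX3CR1 and CCR2. Their RNA was amplified with a SMART-Seq kit, which copies full-length cDNA from small inputs. The sources used here count 3 mice per group for the young and aged CRMs, without stating that each sample was 1 mouse. They give no count of the mice fed the high-fat diet. No genetic manipulation was named for any group. Replicates are the samples the labels number 1 to 3. The p-values of the main test use the spread between replicates, estimated jointly over all 18 libraries and not from the 6 compared libraries alone.

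CCR2 is a receptor for the chemokine CCL2 that lets monocytes leave the marrow and enter tissue. CRMs that carry it are replenished by such monocytes and express much MHC class II, whereas CRMs without it persist locally and include cells marked by LYVE1, TIMD4 and FOLR2. Macrophages take up lipid from lipoproteins and dead cells, break it down in lysosomes through lysosomal acid lipase, and store it, export it or burn it in mitochondria.

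Total counts were 42223296 to 56541280 in the control and 45799310 to 52436469 in the high-fat diet CCR2+ libraries. The levels below are counts scaled to a common library total (CPM), and 3 counts, the most that a count of 0 allows, stand for 0.0531 to 0.0711 CPM. That limit covers error of counting alone, since PCR copies are no independent molecules. Adgre1, which encodes the macrophage marker F4/80, stood at 121, 628 and 308 CPM in the controls and 330, 656 and 579 CPM on the high-fat diet. Lyz2 stood at 22396 to 38364 CPM in the controls and 33292 to 46295 CPM on the diet, and Cd74, the invariant chain of MHC class II, at 33327 to 62447 and 44873 to 53420 CPM. Lyz2 and Cd74 were thus abundant in all 6 libraries, whereas other genes of the 15-gene macrophage list were nearly missing in some. Mertk stood at 1.1, 155 and 1.05 CPM in the controls and 8.62, 19.3 and 1.04 CPM on the diet. C1qb of that list stood at 3510 to 8156 CPM and 4229 to 6309 CPM. The labels name the CCR2 subset alone. Ccr2 itself stood at 235, 233 and 36.5 CPM in the controls and 162, 330 and 234 CPM on the diet, against 2.31 to 4.75 CPM in control CCR2- CRMs and 6.41 to 35.9 CPM in high-fat diet CCR2- CRMs. The lowest CCR2+ library, control replicate 3, was thus close to the highest CCR2- library of the diet. Itgam, which encodes CD11b, and Cx3cr1, both of which were used in the sort, stood as low as 1.07 and 4.58 CPM in that same control library.

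Many genes were either at their usual level or nearly missing in single libraries. Of the 4887 genes whose mean reached 20 CPM over the 18 libraries, 41.5%, 37.0% and 58.9% stood below 10% of their mean over the 17 other libraries in control replicates 1, 2 and 3, and 11.2%, 15.1% and 30.9% did in high-fat diet replicates 1, 2 and 3. Such a value is called a low level below. The share was 45.8% ± 11.6 (SD, n = 3) in the controls and 19.1% ± 10.4 (SD, n = 3) on the diet, and the groups did not overlap (exact permutation test, two-sided, p = 0.1, which 3 libraries against 3 cannot go below). It was 9.82% to 31.8% in control and 2.95% to 20.2% in high-fat diet CCR2- CRMs. The genes at a low level had a median of 4.07% to 4.21% of their mean elsewhere in the controls and 4.59% to 5.33% on the diet, and few genes lay between both states, with 2.44% to 3.83% of genes at 10 to 20% of their mean elsewhere. In control and aged CCR2- CRMs, which share the fit, replicate 3 lay between replicates 1 and 2 in 99.6% and 99.7% of the genes that differed at least 2-fold between them, against 32.9% to 64.4% for the 6 CCR2+ libraries compared. The part that these low levels had in the results below was not tested. Their counts are given for the called genes and for some lists, but not for most uncalled genes named below. Dgat2, Ebp and Irf3, for example, were at a low level in 3 controls, Soat1 and Gla in 2, and Pkm and Vim in none.

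**Figure D1:**
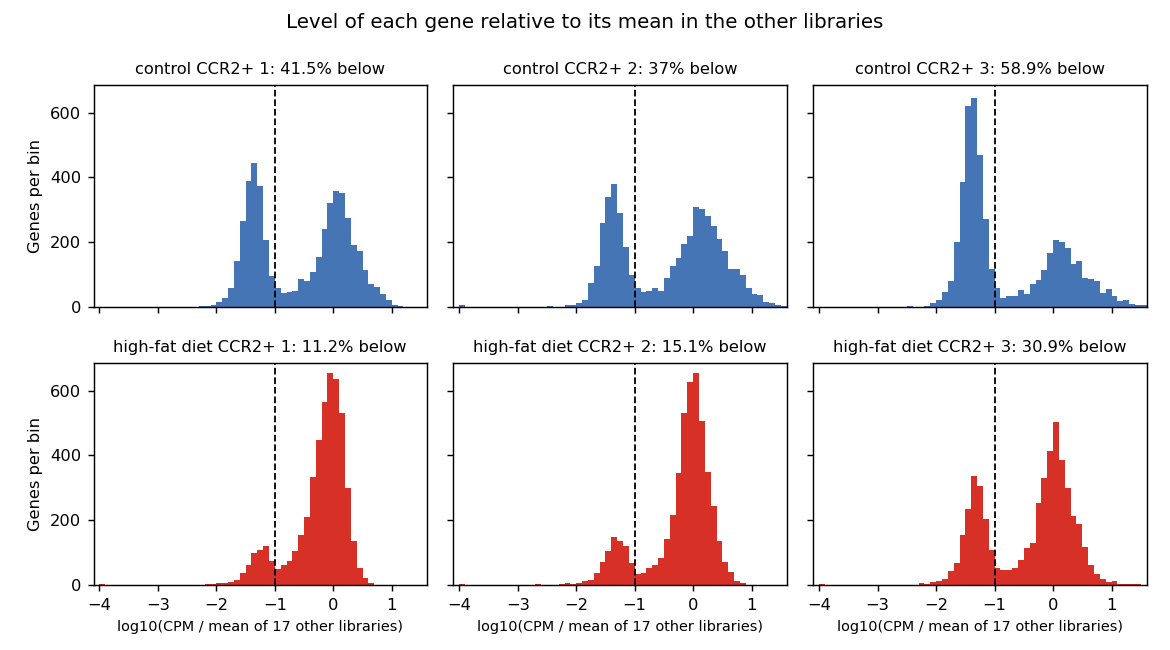
Number of genes (vertical axis, per bin of 0.1) by the log10 ratio of their CPM in one library to their mean CPM in the 17 other libraries (horizontal axis), for 4887 genes in each of the 3 control (blue) and 3 high-fat diet (red) CCR2+ libraries. Each library shows 2 humps, one near the mean of the other libraries and one at a few percent of it, and the dashed line at 10% leaves 37.0% to 58.9% of genes below it in the controls and 11.2% to 30.9% on the diet.

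Of the 4887 genes, 1106 were at a low level in none of the 6 CCR2+ libraries and 37 in all of them. A low level in all 3 controls and in no high-fat diet library was found for 279 genes (5.71%), and the opposite pattern for 6 genes (0.123%). Of these, 63 genes were low in the 3 control CCR2+ libraries and in no other of the 18 libraries, whereas 0 genes were low in the 3 high-fat diet CCR2+ libraries and no other.

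**Figure D2:**
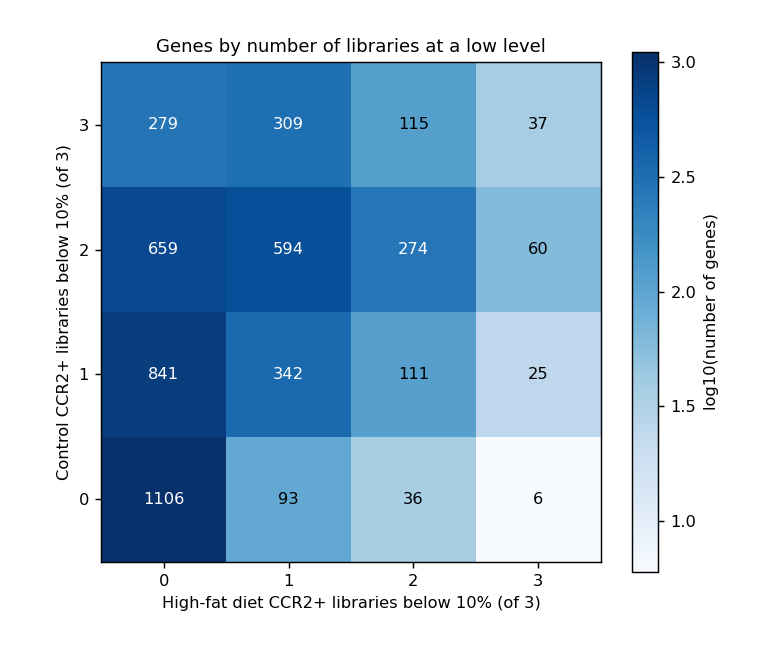
Number of genes, printed in each cell and shaded on a log10 scale, by how many of the 3 control CCR2+ libraries (vertical axis) and how many of the 3 high-fat diet CCR2+ libraries (horizontal axis) held them below 10% of their mean over the 17 other libraries. The top left corner holds the 279 genes that were low in all 3 controls only, and the bottom right corner the 6 genes that were low in all 3 high-fat diet libraries only.

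Between high-fat diet and control CCR2+ CRMs, 19 of 15456 genes passed both thresholds for a call, an adjusted p below 0.05 and a change beyond 2 on the log2 scale (quasi-likelihood test of edgeR on all 18 libraries, adjusted by Benjamini-Hochberg), with 17 genes higher on the diet (0.11% of the genes tested) and 2 lower (0.0129%). The genes that rose included the transcription factors Batf and Stat3, the lysosomal acid lipase gene Lipa, the leukotriene B4 receptor gene Ltb4r1 and the type I interferon receptor gene Ifnar2. The genes that fell were Cdc123 and Rnd3. Their log2 fold changes ran from 4.13 to 6.81 in the genes that rose and were -5.55 and -6.45 in the genes that fell, and the 3 high-fat diet libraries lay on one side of the 3 controls for all 19. Over all genes tested, the 3 high-fat diet libraries lay above the 3 controls in 16.1% and below them in 3.7% by CPM of the library total, and with TMM factors, as in the test, these shares were 9.0% and 7.6%. With the p left unadjusted and below 0.05, and with that fold change, 2278 genes were higher (14.7%) and 1290 lower (8.35%).

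The number of calls rested on the method and on single libraries. It was 0 with RLE factors, with only the 6 compared libraries fitted, without high-fat diet CCR2+ replicate 1, and without replicate 3 of control and of aged CCR2- CRMs, which entered the fit. DESeq2 on the 18 libraries called 1153 genes higher (8.66% of those with an adjusted p) and 1483 lower (11.1%), the 19 among them in the same direction.

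Batf had the smallest p of all genes. It encodes a basic leucine zipper protein of the AP-1 family that pairs with JUN proteins and interferon regulatory factors. Batf stood at 3.22, 4.26 and 3.22 CPM in the 3 controls and at 261, 153 and 128 CPM in the 3 high-fat diet libraries, which is a change of 5.02 on the log2 scale (standard error 0.66, adjusted p = 0.00879). The 12 libraries of the other groups held 73.7 to 203 CPM of Batf, so that the control CCR2+ libraries were the ones that stood apart and the high-fat diet libraries lay largely within the range of the rest. It was the 1 gene that also passed an adjusted p under 0.01.

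Of the genes of lipid breakdown, Lipa rose. Lipa, whose product frees cholesterol and fatty acids from lipoprotein esters in the lysosome, stood at 5.54, 10 and 8.14 CPM in the controls and at 146, 218 and 280 CPM on the diet (log2 fold change 4.18, standard error 0.67, adjusted p = 0.0355). The lowest high-fat diet library exceeded the highest control, and in the 12 other libraries Lipa ranged from 94.6 to 318 CPM.

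Stat3, the transcription factor downstream of IL-6 and IL-10 receptors, stood at 10.1, 7.56 and 5.67 CPM in the controls and at 60.7, 184 and 325 CPM on the diet (log2 fold change 4.13, standard error 0.76, adjusted p = 0.0355). Ifnar2, a chain of the type I interferon receptor, stood at 3.41, 5.35 and 3.72 CPM and at 169, 180 and 98.9 CPM (log2 fold change 4.53, standard error 0.81). Ptpn2, a phosphatase that restrains JAK-STAT signaling, stood at 1.41, 1.61 and 1.49 CPM and at 77.3, 149 and 141 CPM (log2 fold change 5.74, standard error 1.03). The controls of these 3 genes were within a few CPM of each other, while the high-fat diet libraries spread up to several fold in Stat3. Ltb4r1, the high-affinity leukotriene B4 receptor, stood at 1.26, 2.06 and 1.29 CPM in the controls and at 94.3, 162 and 99.4 CPM on the diet (log2 fold change 5.69, standard error 1.0). Dpep2, a dipeptidase that converts leukotriene D4, stood at 4.6, 4.33 and 5.32 CPM and at 70.6, 172 and 325 CPM (log2 fold change 4.73, standard error 0.80). Cklf, a chemokine-like factor, stood at 1.66, 2.56 and 1.66 CPM and at 73.6, 103 and 68.3 CPM (log2 fold change 4.79, standard error 0.88). The adjusted p of these 5 genes after Stat3 was 0.0355 each in the same test.

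Rab4b, a small GTPase of early and recycling endosomes, stood at 3.13, 2.79 and 2.69 CPM in the controls and at 107, 141 and 82.7 CPM on the diet (log2 fold change 4.6, standard error 0.75, adjusted p = 0.0355). Vps26a, a subunit of the retromer complex that returns receptors from endosomes, stood at 3.31, 1.87 and 1.58 CPM and at 117, 358 and 320 CPM (log2 fold change 6.33, standard error 1.08, adjusted p = 0.0355). Both genes were clearly separated between the groups. Tep1, Susd3, Tcp11l2 and Rbm42, an RNA-binding protein gene, rose by log2 fold changes of 5.53, 4.78, 4.80 and 5.19 (adjusted p = 0.0355, 0.0355, 0.0414 and 0.0469). Cenpa, the centromeric histone H3 variant, rose from 1.80, 3.24 and 1.62 CPM to 84.8, 126 and 89.1 CPM (log2 fold change 4.95, standard error 0.91, adjusted p = 0.0355). Wnt11, a secreted Wnt ligand, rose from 0.371, 0.758 and 0.438 CPM to 83.5, 122 and 60.7 CPM (log2 fold change 6.81, standard error 1.29, adjusted p = 0.0439).

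Both genes that fell encode regulators outside lipid metabolism. Cdc123, an assembly factor of the translation initiation factor eIF2, stood at 153, 432 and 371 CPM in the controls and at 28.5, 2.27 and 3.85 CPM on the diet (log2 fold change -5.55, standard error 0.99, adjusted p = 0.0355). Rnd3, an atypical small GTPase that counters actomyosin contraction, stood at 104, 188 and 200 CPM in the controls and at 2.36, 3.20 and 3.36 CPM on the diet (log2 fold change -6.45, standard error 1.19, adjusted p = 0.0355). Rnd3 was also low in aged CCR2+ replicates 1 and 3, at 2.85 and 3.12 CPM, but stood at 45.8 CPM in replicate 2. Cdc123 ranged from 32.5 to 139 CPM in the 12 other libraries.

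All 17 genes that rose were at a low level in all 3 controls and in no high-fat diet library. Their control values, 0.371 to 10.1 CPM, were 1.31% to 6.27% of their means over the 17 other libraries, and their high-fat diet values were 56.9 to 358 CPM. For 11 of the 17, Batf, Lipa and Rab4b among them, the 3 control CCR2+ libraries were the only ones of the 18 at a low level. Ltb4r1, Wnt11 and Cenpa, which were low in 7, 10 and 6 libraries, were also low in the control CCR2- libraries, at 3.50 to 3.90, 0.131 to 0.496 and 1.82 to 3.03 CPM. Of the 2 genes that fell, Rnd3 was at a low level in 3 and Cdc123 in 2 high-fat diet libraries.

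**Figure D3:**
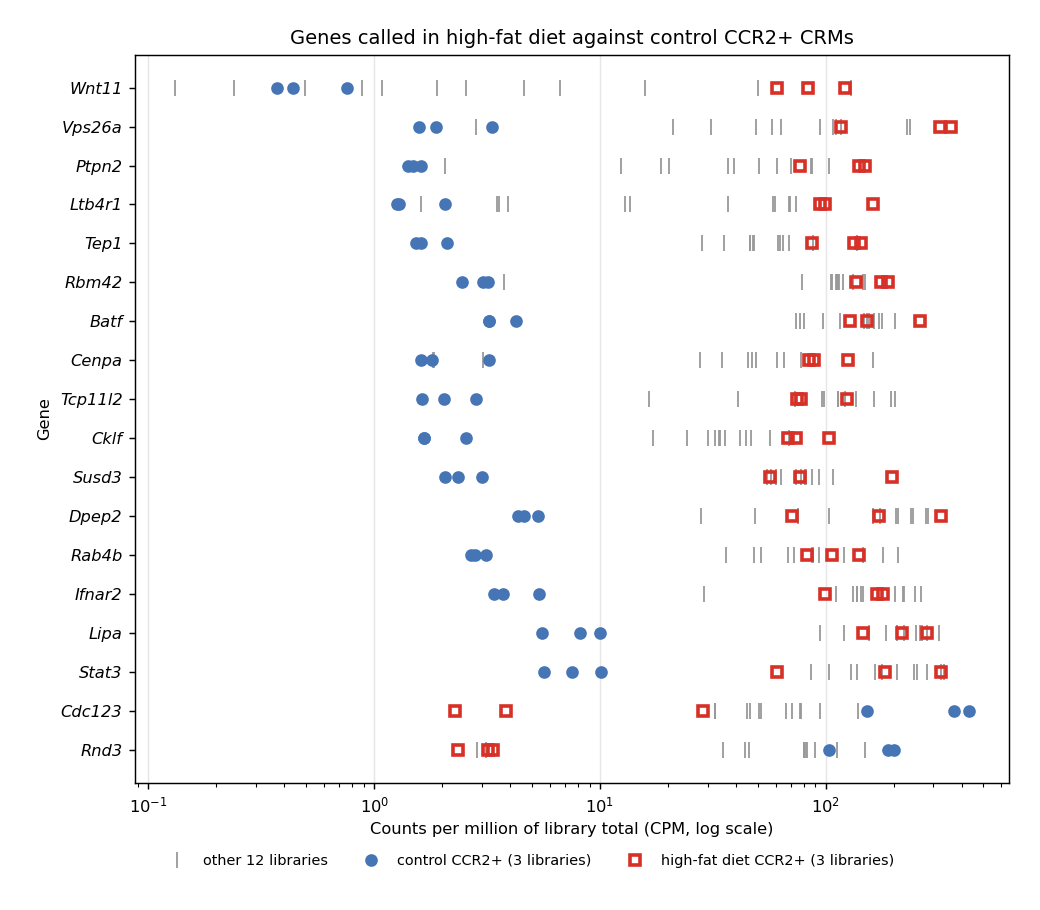
CPM of the library total on a log scale (horizontal axis) of 18 of the 19 called genes (vertical axis, ordered by fold change) in each control (filled circles) and high-fat diet (open squares) CCR2+ library, with the 12 other libraries as grey ticks. The groups do not overlap in any of the genes plotted, and in most of those that rose the grey ticks lie with the high-fat diet libraries.

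The promoters of 3 of the genes that rose are shown because they stand for the transcription factor, lipid and interferon receptor genes among the calls. RefSeq promoters on GRCm38.p6 matched 13 of the 17 genes that rose. In the 250 bases before the start, 4 motifs were searched on both strands, the STAT motif TTCNNNGAA, the AP-1 motif TGANTCA, the E-box CACGTG and the PU.1 motif GAGGAAG. The STAT motif was present in 1 of 13 (7.02% of all 32851 promoters), the AP-1 motif in 0 (6.75%), the E-box in 1 (6.02%) and the PU.1 motif in 4 (10.6%). The matches were in Ifnar2 for the STAT motif, in Vps26a for the E-box, and in Cenpa, Susd3, Ltb4r1 and Lipa for PU.1. The sequences below run 5′ to 3′ along the gene's strand and end at or before the annotated start, with a motif match in capitals. Batf is at chr12:85686470-85686668 on the plus strand, where the 199 bases outside the GENCODE gene hold no match. Lipa is at chr19:34527475-34527724 on the minus strand, with the PU.1 match from base -183. Ifnar2 is at chr16:91372533-91372782 on the plus strand, with the STAT match from base -214.
Batf: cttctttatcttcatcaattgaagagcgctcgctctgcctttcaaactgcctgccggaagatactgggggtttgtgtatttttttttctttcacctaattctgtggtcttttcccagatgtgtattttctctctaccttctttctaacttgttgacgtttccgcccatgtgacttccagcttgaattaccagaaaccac
Lipa: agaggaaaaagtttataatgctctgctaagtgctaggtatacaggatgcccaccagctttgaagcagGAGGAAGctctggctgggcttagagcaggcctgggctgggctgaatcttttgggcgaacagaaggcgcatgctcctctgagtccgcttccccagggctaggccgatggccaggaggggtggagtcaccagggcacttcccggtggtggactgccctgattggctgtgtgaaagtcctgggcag
Ifnar2: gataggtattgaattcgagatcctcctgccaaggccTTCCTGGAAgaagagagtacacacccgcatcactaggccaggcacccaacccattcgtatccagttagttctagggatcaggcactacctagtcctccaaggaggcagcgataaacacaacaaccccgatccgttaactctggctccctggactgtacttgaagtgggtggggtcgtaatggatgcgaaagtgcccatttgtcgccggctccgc

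Below the calls, the next genes lower on the diet were of 2 kinds. Grina stood at 129, 139 and 119 CPM in the controls and at 22.4, 21.7 and 6.37 CPM on the diet (log2 fold change -3.64, adjusted p = 0.0602). Its groups did not overlap, beside 3.7% of all genes tested with the diet below all controls. Cops7a, Fam193a, Epm2aip1 and Dtymk had log2 fold changes of -7.50 to -8.76, each with control replicate 1 nearly as low as the high-fat diet libraries. Zbtb5 had the same pattern, at 0.548, 164 and 80.8 CPM in the controls and at 0.0873, 0 and 0 CPM on the diet (adjusted p = 0.0602). In the 12 other libraries Fam193a, Epm2aip1 and Zbtb5 reached at most 10.4, 9.2 and 1.02 CPM, so that control replicates 2 and 3 were the ones that stood apart. Cops7a and Dtymk ranged from 1.69 to 121 and from 3.74 to 92.3 CPM in those libraries. Hpf1 stood at 45.9, 110 and 359 CPM in the controls and at 19.7, 23.1 and 1.78 CPM on the diet (adjusted p = 0.067). None of these passed the threshold.

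In the 23 gene lists compared, 3 list genes were called, Lipa, Batf and Cenpa, all higher on the diet. The other genes of each list are therefore described by their medians and levels. With the scaling, the median change of all genes tested moved from 0.00 with TMM factors to -0.74 with RLE factors and 0.43 with the library total alone on the log2 scale. List medians are given in that order, and a direction is given only where the 3 have the same sign.

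In the list of lipid uptake, storage and lipid-associated macrophage genes, 1 of 25 genes (Lipa) rose, 0 fell, and the median log2 fold change was -0.52, -1.21 and 0.01. Soat1, which esterifies cholesterol for storage, stood at 9.69, 2.25 and 1.40 CPM in the controls and at 51.0, 151 and 168 CPM on the diet (log2 fold change 4.34, adjusted p = 0.0929). Dgat2, which makes triglycerides, stood at 0.336, 0.403 and 0.766 CPM and at 11.7, 23.7 and 66.4 CPM (log2 fold change 5.42, adjusted p = 0.141). Both genes lay above every control on the diet, as did 5 of the 25 genes in all, beside 16.1% of all genes tested. Neither passed the test, and Soat1 was at a low level in 2 controls and Dgat2 in 3. Spp1, which encodes osteopontin, moved the other way, at 148, 2960 and 308 CPM in the controls and at 167, 120 and 78.3 CPM on the diet (log2 fold change -3.54, adjusted p = 0.067), but control replicate 1 lay within the range of the diet.

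Cholesterol handling split into separate genes without a common direction. Among 12 cholesterol efflux and LXR target genes, 0 were called and the medians were -0.26, -1.07 and 0.24. Npc2, which carries cholesterol out of the lysosome, stood at 696, 776 and 684 CPM in the controls and at 650, 674 and 365 CPM on the diet (log2 fold change -1.02, adjusted p = 0.157). Scarb1, a receptor for high-density lipoprotein, stood at 0.354, 0.829 and 0.394 CPM and at 44.3, 124 and 1.21 CPM (log2 fold change 6.11, adjusted p = 0.104). Of 23 cholesterol synthesis genes 0 were called, with medians of 0.21, -0.50 and 0.60. Their sterol isomerase gene Ebp came nearest, at 3.41, 2.18 and 3.46 CPM in the controls and at 110, 40.8 and 182 CPM on the diet (log2 fold change 4.57, adjusted p = 0.0602). Sc5d and Stard4 had log2 fold changes of 4.39 and 4.84, and Fdft1, squalene synthase, of -4.26, where its control level rested on replicate 2 at 149 CPM beside 2.46 and 2.45 CPM. Of the genes of this list whose mean reached 20 CPM, 71.4% of values were at a low level in the controls and 19.0% on the diet, against 45.8% and 19.1% over all such genes.

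Genes that make or burn fatty acids gave 0 calls among 17 synthesis and desaturation genes and 0 among 25 oxidation and PPAR target genes. Hadha, the alpha subunit of the mitochondrial trifunctional protein, stood at 1.64, 2.27 and 2.21 CPM in the controls and at 25.5, 65.4 and 2.56 CPM on the diet (log2 fold change 3.17, adjusted p = 0.112). Cpt1a, which starts the import of fatty acids into mitochondria, stood at 0.849, 0.971 and 1.34 CPM and at 2.79, 85.7 and 1.47 CPM (log2 fold change 4.02, adjusted p = 0.146), so that its difference lay mostly in 1 library. Elovl1, which elongates saturated fatty acids, stood at 267, 142 and 439 CPM and at 194, 186 and 91.4 CPM (log2 fold change -1.72, adjusted p = 0.126), with overlap. The oxidation list had 56.2% of values at a low level in the controls and 25% on the diet.

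Transcripts of energy production had list medians below 0 under all 3 scalings, with 0 calls. The 20 glycolysis genes had median log2 fold changes of -0.74, -1.45 and -0.30, and 14 of 20 were below 0. Pkm, pyruvate kinase, stood at 688, 1379 and 972 CPM in the controls and at 772, 660 and 252 CPM on the diet (log2 fold change -1.52, adjusted p = 0.0898). Pgam1 stood at 250, 503 and 594 CPM and at 213, 165 and 215 CPM (log2 fold change -1.89, adjusted p = 0.11). It was the 1 gene of the 20 with the diet below all controls, beside 3.7% of all genes tested. Pfkl and Hk1, which also act in glycolysis, had log2 fold changes of 3.49 and 3.83 (adjusted p = 0.102 and 0.123). The list summed to 4308, 8538 and 4198 CPM in the controls and to 4784, 4936 and 3530 CPM on the diet, so that the groups overlapped. The 42 nuclear-encoded oxidative phosphorylation genes had medians of -0.84, -1.63 and -0.17, with 33 of 42 below 0, and their sums overlapped, at 8664, 11156 and 10976 CPM and at 9791, 7601 and 8696 CPM. Of the list genes with the smallest p, Ndufa10, Cox4i1 and Cox5b had log2 fold changes of -3.65, -1.61 and -1.59 and Ndufv1 one of 3.90, at adjusted p of 0.0948 to 0.113.

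The 13 mitochondrially encoded mRNAs lay below 0 in 13 of 13, with median log2 fold changes of -0.96, -1.81 and -0.20. In none of the 6 libraries was any of them at a low level. mt-Nd2, a complex I subunit, stood at 1019, 620 and 696 CPM in the controls and at 363, 244 and 346 CPM on the diet (log2 fold change -1.92, standard error 0.43, adjusted p = 0.067). mt-Nd1 stood at 1510, 1338 and 1599 CPM and at 967, 714 and 784 CPM (log2 fold change -1.53, adjusted p = 0.0966). In both, the diet lay below the controls without overlap, as in 3 of the 13 genes in all, beside 3.7% of all genes tested. Summed over the list, levels overlapped, at 14943, 15246 and 21892 CPM in the controls and 12666, 11310 and 15683 CPM on the diet. In CCR2- CRMs the list median was -1.04.

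The 75 cytosolic ribosomal protein genes were below 0 in 70 of 75, with medians of -0.92, -1.77 and -0.36 and 0 calls. Low levels were rare in this list, at 1.33% of values in the controls and 0.444% on the diet. Rpl10 stood at 671, 1234 and 1550 CPM in the controls and at 896, 588 and 262 CPM on the diet (log2 fold change -1.78, adjusted p = 0.0943), with overlap. Rps15a and Rps20 had log2 fold changes of -2.20 and -1.98. Ribosomal genes have processed pseudogenes, so that their counts can be shared with near copies. The list summed to 28974, 38166 and 31602 CPM in the controls and to 34992, 22817 and 20599 CPM on the diet, where high-fat diet replicate 1 lay within the controls.

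**Figure D4:**
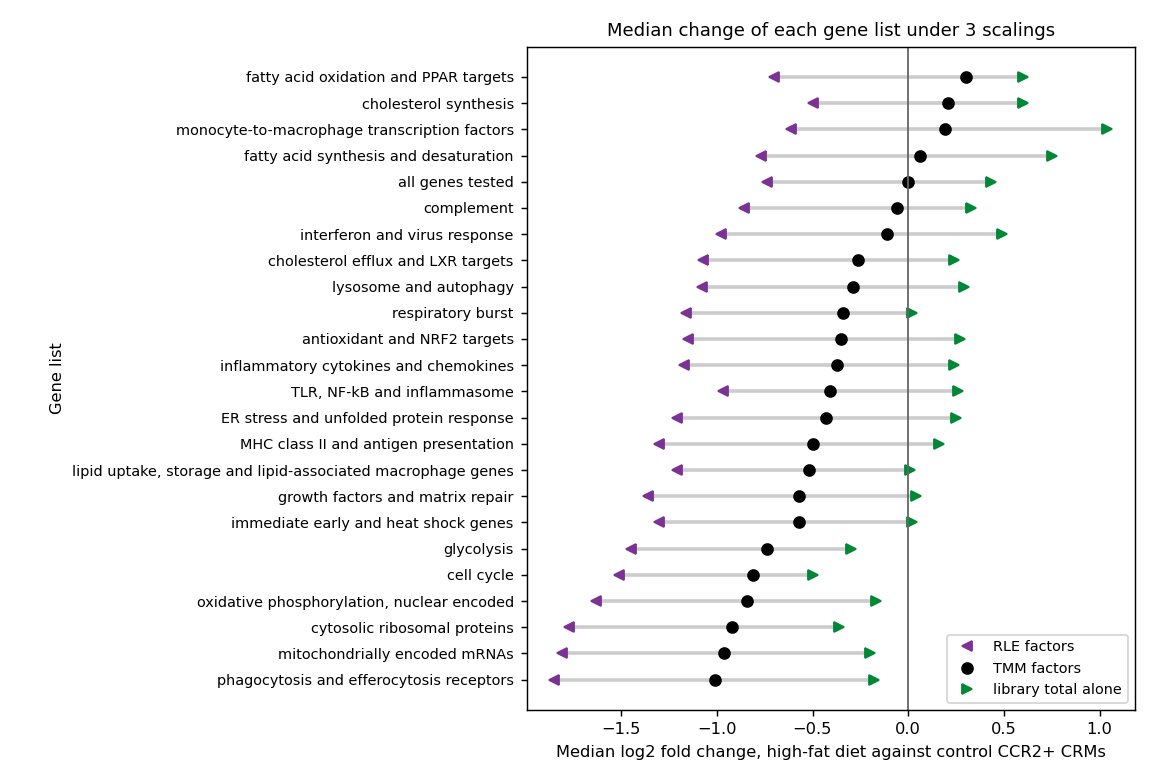
Median log2 fold change between high-fat diet and control CCR2+ CRMs (horizontal axis) of each gene list and of all genes tested (vertical axis), with TMM factors (circles), RLE factors (left triangles) and the library total alone (right triangles). The scaling moved the median of all genes from -0.74 to 0.43, and the lists of phagocytosis, mitochondrial, ribosomal, oxidative phosphorylation, cell cycle and glycolysis genes lie below 0 under all 3.

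Antigen presentation was the most abundant of the programs compared and did not separate the groups. The 22 MHC class II and antigen presentation genes summed to 160314, 96933 and 128775 CPM in the controls and to 145186, 128720 and 143878 CPM on the diet, with 0 calls and medians of -0.50, -1.30 and 0.16. H2-Aa stood at 21319, 12847 and 16430 CPM and at 16103, 14479 and 17475 CPM (log2 fold change -0.72, adjusted p = 0.162). H2-DMa, which helps load peptide, stood at 1605, 984 and 2516 CPM and at 1234, 1120 and 1407 CPM (log2 fold change -1.22, adjusted p = 0.143).

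Inflammatory genes gave 0 calls among 33 cytokine and chemokine genes and 0 among 37 genes of TLR, NF-κB and inflammasome signaling. Il1b stood at 4385, 1795 and 2559 CPM in the controls and at 2380, 1835 and 2220 CPM on the diet (log2 fold change -1.09, adjusted p = 0.123). Cxcl10, an interferon-induced chemokine, stood at 67.7, 9.69 and 11.5 CPM and at 261, 108 and 145 CPM (log2 fold change 1.96, adjusted p = 0.127). Cxcl9 stood at 0.973, 2.51 and 0.175 CPM and at 22.6, 29.8 and 46.8 CPM (log2 fold change 4.52, adjusted p = 0.144). Both CXCR3 ligands lay above every control on the diet without passing the test, as did 4 of the 33 genes of the list in all, beside 16.1% of all genes. Ccl8 differed the other way through control replicate 2, at 43.7, 587 and 8.80 CPM in the controls and 17.3, 20.5 and 8.21 CPM on the diet (log2 fold change -4.02, adjusted p = 0.0883). Nlrp3, the inflammasome sensor, stood at 4.01, 3.32 and 2.04 CPM and at 34.6, 20 and 59.1 CPM (log2 fold change 3.12, adjusted p = 0.101), and Nfkbie, an NF-κB inhibitor, at 16.7, 3.08 and 3.83 CPM and 138, 126 and 205 CPM (log2 fold change 3.78, adjusted p = 0.101). Both were at a low level in at least 2 controls.

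Of 46 interferon and virus response genes 0 were called, with medians of -0.11, -0.98 and 0.49, and single genes pointed both ways. Irf1 stood at 141, 245 and 168 CPM in the controls and at 54.3, 5.05 and 5.4 CPM on the diet (log2 fold change -3.80, adjusted p = 0.101). Irf3 stood at 1.5, 1.47 and 1.38 CPM and at 21.5, 32.4 and 65.4 CPM (log2 fold change 4.23, adjusted p = 0.11). Gbp7 and Rsad2 had log2 fold changes of 3.61 and 4.69. The list had 51.8% of values at a low level in the controls and 23.7% on the diet.

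Uptake and degradation of cargo gave 0 calls among 29 phagocytosis and efferocytosis receptor genes, whose medians were -1.01, -1.85 and -0.18, and 0 among 40 lysosome and autophagy genes, whose medians were -0.29, -1.08 and 0.29. Axl, a receptor for apoptotic cells, stood at 289, 334 and 446 CPM in the controls and at 334, 212 and 45.4 CPM on the diet (log2 fold change -1.67, adjusted p = 0.121). Fcgr4, an Fc receptor, stood at 2.83, 81.5 and 4.86 CPM and at 166, 198 and 205 CPM (log2 fold change 2.48, adjusted p = 0.11). Vav1 and Gas6 had log2 fold changes of 4.07 and 2.46. Gla, alpha-galactosidase A of the lysosome, stood at 1.84, 9.40 and 1.79 CPM and at 142, 161 and 74.9 CPM (log2 fold change 4.44, adjusted p = 0.0896), and Becn1, an autophagy initiator, at 7.94, 5.31 and 5.38 CPM and 48.8, 42.1 and 64.3 CPM (log2 fold change 2.47, adjusted p = 0.104). All high-fat diet libraries lay above all controls in 6 of the 40 lysosome and autophagy genes, beside 16.1% of all genes. In the complement list 0 of 26 genes were called, and the genes with the smallest p, Itgax and C4b among them, were at a low level in all 3 controls.

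Of 20 transcription factors of the monocyte-to-macrophage transition Batf was the 1 called, with list medians of 0.19, -0.61 and 1.04. Batf3 stood at 0.407, 0.426 and 0.503 CPM in the controls and at 35.2, 0.954 and 0.724 CPM on the diet (log2 fold change 3.96, adjusted p = 0.112), so that its level rested on 1 library. Bhlhe41 stood at 0.336, 0.568 and 0.438 CPM and at 7.45, 12.1 and 21.5 CPM (log2 fold change 4.40, adjusted p = 0.108), and Klf13 at 221, 513 and 235 CPM and 100, 203 and 97.7 CPM (log2 fold change -1.81, adjusted p = 0.112). Each was separate between the groups. On the diet, 8 genes of the list lay above and 2 below every control, beside 16.1% and 3.7% of all genes tested. In the cell cycle list Cenpa was the 1 gene of 35 called, with medians of -0.81, -1.51 and -0.50, while Plk1 and Mcm2 stood at 175 and 182 CPM in control replicate 2 and at 0.349 to 2.12 CPM in the 5 other libraries.

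The remaining lists gave 0 calls, namely 28 antioxidant and NRF2 target genes, 10 respiratory burst genes, 34 ER stress genes, 34 immediate early and heat shock genes and 32 growth factor and matrix repair genes. Txn1, thioredoxin, stood at 505, 522 and 651 CPM in the controls and at 398, 440 and 279 CPM on the diet (log2 fold change -1.31, adjusted p = 0.11), and Ftl1, ferritin light chain, at 26417, 19128 and 29346 CPM and 28035, 28352 and 24608 CPM (log2 fold change -0.61, adjusted p = 0.195). Hsp90ab1 stood at 1310, 1208 and 722 CPM and at 725, 741 and 726 CPM (log2 fold change -1.11, adjusted p = 0.107). Txn1 lay below every control on the diet, the 1 such gene of its list, beside 3.7% of all genes tested. The others overlapped. Mmp9 and Vegfb, at 169 and 134 CPM in 1 control each, were at most 2.34 CPM in the 5 other libraries, and Pgd, of the pentose phosphate pathway, stood at 3.38, 15.2 and 2.47 CPM and 34.7, 130 and 133 CPM (log2 fold change 3.53, adjusted p = 0.0766).

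Genes that were above the low level in all 6 libraries were compared on their own, an alternative chosen after seeing the data. Among the 1106 genes at a low level in none of the 6 CCR2+ libraries, the edgeR fit of the 18 libraries, adjusted by Benjamini-Hochberg over these genes, called 4 genes higher and 0 lower, and 6 genes, all higher, had an adjusted p under 0.05. The choice leaves out every gene whose difference came with a low level in any of the 6 libraries. Pld4, an endolysosomal exonuclease that degrades single-stranded nucleic acid, stood at 454, 769 and 702 CPM in the controls and at 1451, 1308 and 1439 CPM on the diet (log2 fold change 1.29, standard error 0.22, adjusted p = 0.00672). Lsp1, an actin-binding protein of leukocytes, stood at 782, 710 and 699 CPM and at 1682, 2005 and 1130 CPM (log2 fold change 1.26, standard error 0.25, adjusted p = 0.0242). These 2 abundant genes were above every control in every high-fat diet library, beside 16.1% of all genes tested. Ccr7, the receptor that guides dendritic cells to lymph nodes, stood at 17.3, 21.1 and 20 CPM and at 149, 142 and 102 CPM (log2 fold change 2.88, standard error 0.48, adjusted p = 0.00672). Chmp2a, a subunit of the ESCRT-III complex, stood at 83.8, 90.0 and 68.9 CPM and at 249, 460 and 206 CPM (log2 fold change 2.04, standard error 0.39, adjusted p = 0.0176). Pfkl, the liver type of phosphofructokinase, stood at 3.86, 3.74 and 3.57 CPM and at 59.3, 110 and 32.7 CPM (log2 fold change 4.29, standard error 0.71, adjusted p = 0.00672), the lowest controls of the 6 genes, which at up to 10.9% of the mean elsewhere sat just above the low level. Rpl36a, a ribosomal protein gene, stood at 15.8, 6.18 and 7.75 CPM and at 45.9, 40.8 and 107 CPM (log2 fold change 2.84, standard error 0.62, adjusted p = 0.0473).

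The scale of that subset mattered for these genes. In the fit of 15456 genes and 18 libraries, Pld4 and Lsp1 had log2 fold changes of 0.48 and 0.47 (adjusted p = 0.414 and 0.497), which were -0.33 and -0.38 with RLE factors and 1.13 and 1.14 with the library total alone. Ccr7, Chmp2a, Pfkl and Rpl36a had adjusted p of 0.119, 0.163, 0.102 and 0.144 in that fit, so that none of the 6 genes was called there. Vim, the intermediate filament vimentin, was abundant in all 6 libraries and lower on the diet under each scaling, at 2126, 2129 and 2305 CPM in the controls and 1431, 1348 and 882 CPM on the diet (log2 fold change -1.54, standard error 0.35, adjusted p = 0.067). Its log2 fold change was -2.39 with RLE factors, -0.84 with the library total alone and -0.71 among the 1106 genes (adjusted p = 0.305).

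**Figure D5:**
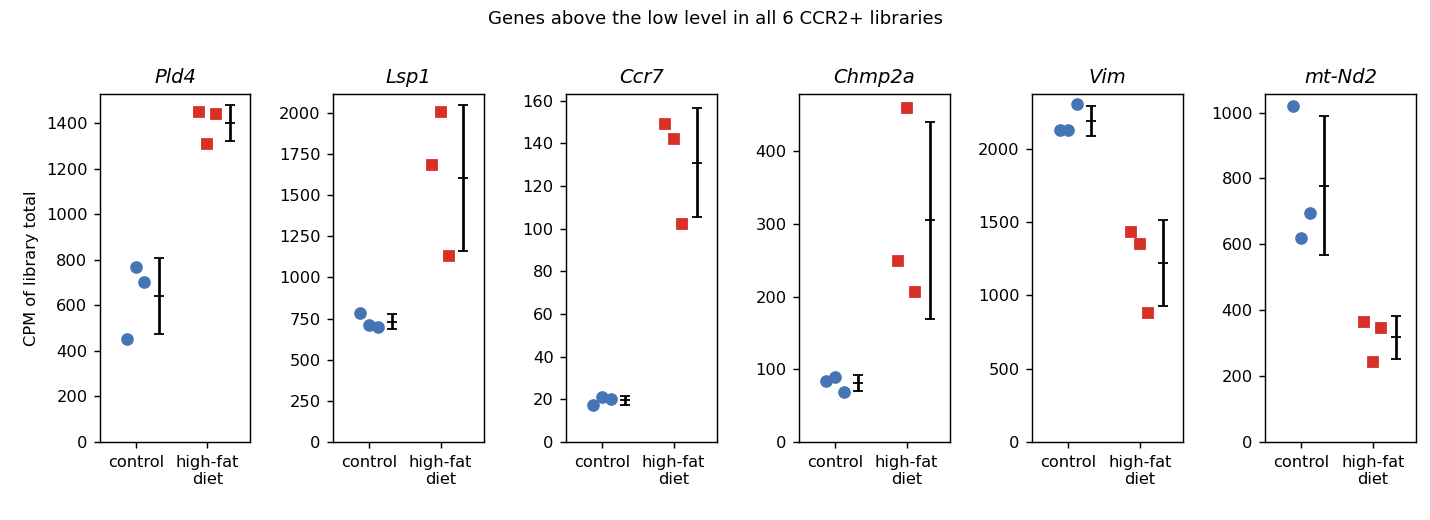
CPM of the library total (vertical axes, each from 0 with its own range) of 6 genes that were above the low level in all 6 CCR2+ libraries, as 1 point per library with the mean ± SD of 3 libraries beside it. Pld4, Lsp1, Ccr7 and Chmp2a lie higher and Vim and mt-Nd2 lower in every high-fat diet library (squares) than in every control (circles). Over all genes tested, 16.1% lay higher and 3.7% lower in this way.

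Markers of other cells moved with the diet in part. The 8 genes of Lyve1+ resident macrophages summed to 758, 1061 and 853 CPM in the controls and 494, 580 and 1045 CPM on the diet, and Lyve1 itself stood at 229, 151 and 305 CPM and at 17.9, 40.6 and 124 CPM (log2 fold change -2.53, standard error 0.96, adjusted p = 0.132). Lyve1 was lower in every high-fat diet library, while Folr2 and Timd4 overlapped. Cd163 and Gas6 of the same list were higher in every high-fat diet library, at 2.37, 2.63 and 2.63 against 6.64, 4.65 and 84.1 CPM and at 4.58, 5.14 and 4.93 against 37.3, 7.67 and 72.4 CPM, and 4 of the 8 genes had a log2 fold change above 0. Such separation was seen upward in 16.1% and downward in 3.7% of all genes tested. The 12 monocyte genes summed to 1851 to 4877 CPM in the controls and 2342 to 5362 CPM on the diet, and within them Ly6c2, a marker of classical monocytes, stood at 9.46, 6.16 and 1.90 CPM and at 462, 369 and 68.2 CPM, where reads can be shared with its paralog Ly6c1. Of the 12 genes 6 had a log2 fold change above 0, and Hp, at 7.82, 137 and 1455 CPM and at 289, 397 and 281 CPM, overlapped, as did S100a4 and Nr4a1. The dendritic cell list summed to 409 to 1509 and 1309 to 1537 CPM, with Zbtb46, Clec9a and Siglech at or near 0 in all 6 libraries, while Ccr7, given above, and Flt3, at 0.513, 0.284 and 0.35 CPM and at 1.42, 74.9 and 64.4 CPM, lay above every control on the diet. These sums are by the library total, and the order of the groups depended on the scaling. The monocyte list had means of 3078 CPM in the controls and 4265 CPM on the diet, but 5736 and 4325 CPM with TMM factors. For the dendritic cell list they were 1080 and 1413 CPM, but 1923 and 1483 CPM with TMM factors. The Lyve1+ list was lower on the diet both ways, at 891 and 706 CPM and at 1440 and 778 CPM. In bulk samples, more cells of a type and more RNA per cell cannot be told apart.

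The fibroblast list was higher in every control than in every high-fat diet library, in part through Gsn, which encodes gelsolin. The 10 fibroblast genes summed to 444, 1350 and 1330 CPM in the controls and to 269, 352 and 118 CPM on the diet, of which Gsn, which macrophages also express, made 369 to 1075 CPM and 103 to 334 CPM, while Pdgfra and Tcf21 stayed below 1 CPM in all 6 libraries. Without Gsn the list summed to 18, 982 and 256 CPM in the controls and to 75.2, 18.1 and 15.0 CPM on the diet, and the groups overlapped. Dcn stood at 8.06, 335 and 205 CPM and at 62.0, 4.48 and 7.16 CPM. Col3a1 stood at 3.25, 465 and 1.38 CPM and at 2.14, 1.14 and 2.91 CPM. The cardiomyocyte list summed to 81.4 to 255 CPM in the controls and 46.6 to 93.5 CPM on the diet, the erythroid list to 65.4 to 3589 and 168 to 1128 CPM, with its erythroblast genes Alas2 and Slc4a1 at 0, and the neutrophil list to 41.3 to 489 and 83.3 to 376 CPM. The B cell list summed to 176 to 510 and 235 to 985 CPM, that of T and NK cells to 51.8 to 55.3 and 50.7 to 67.4 CPM, and the adipocyte list to 2.61 to 323 and 2.90 to 187 CPM. The endothelial, mural, mast cell and platelet lists stayed at or below 34.7 CPM. The part of these cells in the gene results was not tested.

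In CCR2- CRMs the same contrast called 0 genes (0% of 15456 by edgeR's quasi-likelihood test, smallest adjusted p = 0.171), where 2895 genes had an unadjusted p below 0.05, and DESeq2 on the 18 libraries called 1858. Of the 17 genes that rose in CCR2+ CRMs, 9 had a log2 fold change above 0 in CCR2- CRMs. In 5 of them, Dpep2, Vps26a, Ptpn2, Wnt11 and Cenpa, it was above 2 with an unadjusted p below 0.05 by edgeR's test. Whether the contrast of high-fat diet against control differed between the subsets was tested with an interaction term in the same fit, and 3 genes were called (0.0194%), Batf and Rab4b among them (adjusted p = 0.0299 each by the same test). Batf stood at 203, 156 and 173 CPM in control and 178, 153 and 148 CPM in high-fat diet CCR2- CRMs, a log2 fold change of -0.33 against 5.02 in CCR2+ CRMs. For the other called genes the difference was not called, with adjusted p up to 0.729 for Cenpa, which stood at 1.85, 1.82 and 3.03 CPM in control and 47.2, 45.4 and 34.6 CPM in high-fat diet CCR2- CRMs (log2 fold change 4.09, adjusted p = 0.171). Control replicate 3 of CCR2- CRMs lay between replicates 1 and 2, so that the spread of that group can be too small. Since the fit shares the spread, the spread behind the CCR2+ calls can be too small as well.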

How the data were processed

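Of 18 RNA libraries of sorted CRMs, the 6 control and high-fat diet CCR2+ libraries were compared. Groups and replicate numbers were taken from the sample titles. Per the labels and methods, the authors used Cutadapt for trimming, HISAT2 for mapping and StringTie for assembly, and the deposited values are raw counts of reads for each Ensembl gene. The methods name the mouse reference by a release number alone, and strand, multi-mapping reads and the genome build are not given in the sources used here. GENCODE M21 (GRCm38) gave coordinates and named 55141 of 55401 genes, and RefSeq gave the promoters. Counts of 15456 genes that passed filterByExpr were tested with edgeR 4.0.16 in R 4.3.3 (TMM factors, quasi-likelihood fit of 18 libraries by group, Benjamini-Hochberg adjustment, standard error from the fold change and the F statistic), and calls needed an adjusted p below 0.05 with a change beyond 2 on the log2 scale. The thresholds are those of the study's methods, which applied them with DESeq2. With DESeq2 on the 18 libraries they called 2636 genes. DESeq2 1.42.0, voom in limma 3.58.1 (with quality weights), library size alone, RLE factors, other filters and libraries, a replicate block and leaving out each library were alternatives. The scripts were tested on simulated counts with known changes, where the condition to pass covered only a spread well below that of these data. That check cannot tell how the tests perform at the spread of these counts. Named genes were the 12 protein-coding genes with the smallest p in each direction whose mean in the higher group reached 20 CPM, up to 4 genes per list, up to 5 genes per sign of the interaction and 7 sort and subset markers, besides all called genes and the members of the marker lists. The genes at a low level in no library were chosen after their values were seen. The members and the 23 process and 16 cell type lists were chosen with earlier results of these data known. Results for some genes are not reported here. Figures used matplotlib 3.10.9.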

Additional observations from a re-analysis of the deposited data

Results flagged for a closer look

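The contrast of high-fat diet against control differed between CCR2+ and CCR2- CRMs in 3 genes, Batf and Rab4b among them, by an interaction term in edgeR's quasi-likelihood fit, adjusted by Benjamini-Hochberg (adjusted p = 0.0299 each). The difference in log2 fold change was 5.35 for Batf, whose 3 control CCR2+ libraries stood at 3.22 to 4.26 CPM and all 15 others at 73.7 CPM or more. It was 6.58 for Rab4b, with log2 fold changes of 4.6 in CCR2+ and -1.98 in CCR2- CRMs, where control CCR2- libraries stood at 146 to 209 CPM and high-fat diet CCR2- libraries at 36.2 to 68.0 CPM. Both genes were below 10% of their mean elsewhere in the 3 control CCR2+ libraries and in no other library. The call of the 3 was lost in most alternatives, as given below.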

How the results depend on the processing

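The 19 genes called between high-fat diet and control CCR2+ CRMs kept their sign in every alternative that tested them, but the count did not hold. It was 1 at an adjusted p under 0.01, 2636 with DESeq2 on 18 libraries, 854 with DESeq2 on the compared libraries, 2 with limma-voom, 0 with RLE factors (3595 genes at an unadjusted p under 0.05 and beyond 2), 183 with library size alone, 453 with no filter, 180 with at least 10 counts in every compared library and 0 with edgeR on the compared libraries. Leaving out 1 library gave 0 to 42 genes, with 42 without control CCR2+ replicate 1, 3 and 9 without control replicates 2 and 3, 0 without high-fat diet replicate 1, and 2 without replicate 2 or 3. Same-numbered control and high-fat diet CCR2+ libraries showed no pairing (correlations of deviations -0.054, 0.044 and 0.012). Whether same-numbered CCR2+ and CCR2- libraries came from the same mice is not given in the sources used here and was not checked. The interaction test treated them as independent. A fit with a replicate block called 3 genes, and 0 in the interaction. Of the alternatives chosen after seeing the data, leaving out replicate 3 of control and aged CCR2- CRMs gave 0, and genes at no low level gave 4.

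In CCR2- CRMs the count of 0 became 1858 and 2389 with DESeq2 on all and on the compared libraries and 2018 with limma-voom. The interaction count of 3 became 0 at an adjusted p under 0.01, with RLE factors, with the compared libraries and without replicate 3 of control and aged CCR2- CRMs. It was 1635 and 1061 with DESeq2, 25 with library size alone, 477 with no filter, 16 with at least 10 counts and 5 with the robust fit, and leaving out 1 library gave 0 to 22. The fold change of Ccr2 (0.15) turned to -0.53 and -0.14 with DESeq2 on all and on the compared libraries and to -0.56 with RLE factors, and, leaving out 1 library, ranged from -0.18 (without control replicate 3) to 0.64 (without control replicate 1), with -0.06 without high-fat diet replicate 2. That of Ftl1 turned to 0.11 with library size alone and 0.25 among genes at no low level, where that of H2-Aa turned to 0.06. The cause of these changes was not tested. The common dispersion of the counts was 1.484, and 3 counts stood for at most 0.0711 CPM in the 6 libraries.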
